A study of Mus musculus with 2 samples.

Results

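The mitochondrial ribosomal proteins are the nuclear-encoded proteins of the ribosome that works inside mitochondria. Their genes were taken as all genes whose official mouse symbol is Mrpl or Mrps followed by a number, found through the RefSeq accessions that the array files give for their probes. This gave 78 genes of 20614 named on the array, 49 Mrpl and 29 Mrps. The RefSeq table held 84 such symbols, and the other 6 are pseudogenes with 0 probes. The study sorted mouse leukaemia cells of B-ALL, an acute leukaemia of B-cell precursors, out of bone marrow by the signal of SoNar. SoNar is a protein sensor made by the cell itself, and its fluorescence reports how much NADH the cytosol holds relative to NAD+. The groups were SoNar-high and SoNar-low, sorted on the ratio of the signals excited at the sensor's violet and blue wavelengths. Both came from mice of strain C57BL, aged 8 weeks. The labels used here do not say how the leukaemia was made, what alleles the mice carried or whether animals were pooled. Their titles use other names, N-myc-high for SoNar-high and N-myc-low for SoNar-low, which the labels do not explain. Each group had 1 array with total RNA labelled in Cy3, so no difference here has a replicate check, and no test, p-value or standard error over samples could be given.

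The mitochondrial ribosome translates the few messages of the mitochondrial genome, all of which encode membrane subunits of the respiratory chain and of ATP synthase. Its small subunit reads the message, and its large subunit joins the amino acids and releases the chain close to the inner membrane. Many of its proteins descend from those of the bacterial ribosome, while others are found only in mitochondria. All of them are made in the cytosol and imported, and the respiratory chain that depends on them reoxidises NADH in the mitochondrial matrix.

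The SoNar-high array had 72.9% of its 43020 non-control spots well above background and the SoNar-low array 44.8%, with 0 saturated. The arrays were scanned in different sessions, so scan session and group cannot be told apart. Of 15 markers of the B lineage 12 were measured on both arrays, with a median log2 difference (SoNar-high minus SoNar-low, after scaling) of -0.14, whereas Rag1, Rag2 and Igll1 were not well above background on either. Markers of other cell types were also present, and those measured on both arrays were mostly higher in SoNar-high. The median log2 difference was 0.70 over 11 neutrophil, 1.67 over 3 erythroid, 1.26 over 3 T cell, 1.12 over 3 NK cell and 0.81 over 2 monocyte and macrophage markers, and 0 of the megakaryocyte markers were measured on both. Of these, 3 neutrophil, 2 erythroid, 2 T cell, 2 NK cell and 1 monocyte marker were at least 2-fold higher, where 4.87% of all measured genes were. Before any scaling, the summed signal of 13 neutrophil markers was 25822 in SoNar-high and 18653 in SoNar-low, and that of 9 erythroid markers 1950 and 768. For 7 T cell markers the sums were 2140 and 1899, with Lck (858 and 1490) against the direction of Cd4 (881 and 243) and Cd3e (295 and 112), for 5 NK cell markers 1464 and 661, for 5 monocyte and macrophage markers with a probe 479 and 265, and for 5 megakaryocyte markers 103 and 86.7. Cd3d of the T cell, Klrb1c of the NK cell and Gp9, Gp1bb and Ppbp of the megakaryocyte markers stayed in the background range of both arrays. The part of these other cells in the values below was not tested. Because RNA was taken from bulk sorted cells, fewer cells of a type and less RNA per cell cannot be told apart.

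Nearly all of these genes were measured. Of 78 genes, 77 had a probe well above background on both arrays, against 51% of all genes named on the array. The exception was Mrpl21, whose signal of 15.5 in SoNar-high and 10.4 in SoNar-low was not well above background in either. Detection in SoNar-high without detection in SoNar-low was found for 0 of these genes, while it was found for 26.5% of all named genes. By probe, 96 of 100 were measured on both arrays, 3 were seen in SoNar-high alone and 1 on neither. Detection therefore did not separate the arrays for the genes of this ribosome.

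Values were compared as log2 of the processed signal after each array's 75th percentile was subtracted, and the log2 difference is SoNar-high minus SoNar-low. A gene's value is the mean over its probes measured on both arrays. Across all 10515 genes measured on both, the median log2 difference was -0.17. Over 2370 other genes of like level, between the quartiles of the members' mean level, the median was lower, at -0.33. The 77 mitochondrial ribosomal protein genes had a median of -0.25, and their middle range, from the 25th to the 75th percentile, ran from -0.47 to 0.07. A difference of at least 2-fold on the higher side was found for 2 of them, where the share over all measured genes was 4.87%, and on the lower side for 0, where it was 1.68%. Scaling each array to its median instead moved all genes down alike, and the counts became 0 higher and 32 lower. The median of all measured genes was then -0.78, and their share past 2-fold in that scaling is not given here. These counts therefore cannot be read as a result about the members. In the scatter plot of both arrays the members follow the diagonal band of the other genes.

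**Figure D1:**
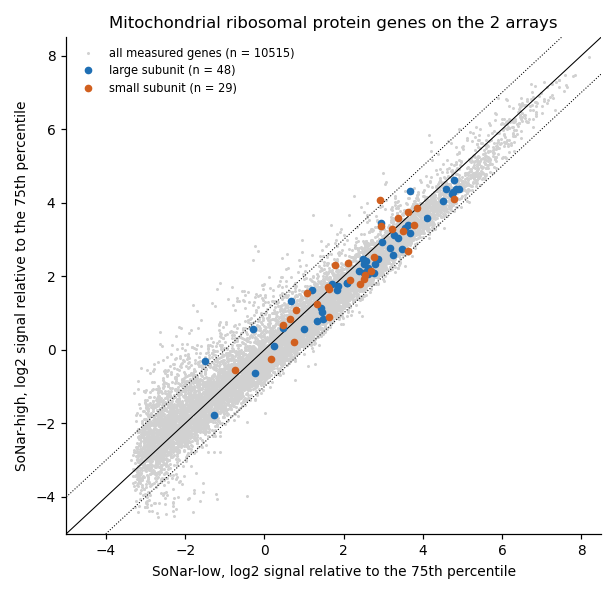
Level of each gene in SoNar-low (x axis) and SoNar-high (y axis), as log2 signal relative to the array's 75th percentile, for all 10515 measured genes (grey), the 48 large subunit genes (blue) and the 29 small subunit genes (orange). The solid line marks equal values and the dotted lines a 2-fold difference, and 2 members, Mrpl1 and Mrps5, lie above the upper dotted line.

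The subunits differed in where their genes were centred. The 48 measured large subunit genes had a median log2 difference of -0.31 and the 29 small subunit genes one of 0.00, a gap of -0.31 (large minus small). Of the large subunit genes 8 lay above 0 (16.7%) and of the small subunit genes 15 (51.7%), where 36.8% of all measured genes did. Among the 2370 other genes of like level the share above 0 was 20.9%, nearer to that of the large subunit. Single genes spread widely, with an SD over genes of 0.41 in the large and 0.47 in the small subunit, and the ranges overlapped over most of their length. Whether the medians differ beyond error was not tested, since there was 1 array per group. The means, -0.22 and -0.09, were only 0.13 apart. The small subunit median falls in a thinly filled stretch, since 10 genes lay at -0.37 or lower and 15 above 0. It is the value of Mrps26, whose 2 probes read 0.56 and -0.55. When each gene was read from its brightest probe, the medians were -0.39 and -0.24 and the gap was -0.15. Over single probes they were -0.29 for 58 Mrpl probes and -0.18 for 38 Mrps probes.

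Symbols do not follow the subunits exactly. Mrps30 and Mrps18a sit in the large subunit in structures of the mammalian ribosome, and with both moved there the medians were -0.29 and 0.00. Mrps36 serves the oxoglutarate dehydrogenase complex and is not seen in those structures, and its log2 difference was -0.08. It was still counted with the small subunit throughout. Genes of like level, those between the lower and upper quartile of the members' mean level, had a median of -0.33 over 2370 genes, close to the large subunit's median. Whether the large subunit lay below or above the median of all genes depended on the normalization. The margin was -0.14 in the setting used here, but 0.0421 with quantile normalization, 0.0379 with cyclic loess and 0.0492 in the authors' value table. The small subunit's margin of 0.17 became -0.14 when probes detected on at least 1 array were used and -0.0068 with no filter on dim probes. With these looser filters its median stayed at 0.00, and the median of all genes rose to 0.14 and 0.0096. The margin was -0.029 with the brightest probe. It was 0.26 with quantile normalization, 0.27 with cyclic loess and 0.25 in the authors' value table. The gap between the subunits was negative in all 13 alternatives tried, between -0.31 and -0.15, but some of these could not have changed it. Median scaling, the percentile over detected spots and centring shift all genes of an array alike, so they left it at -0.31 by construction. The others ran from -0.31, with the stricter filter or outlier spots kept, to -0.15 with the brightest probe.

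**Figure D2:**
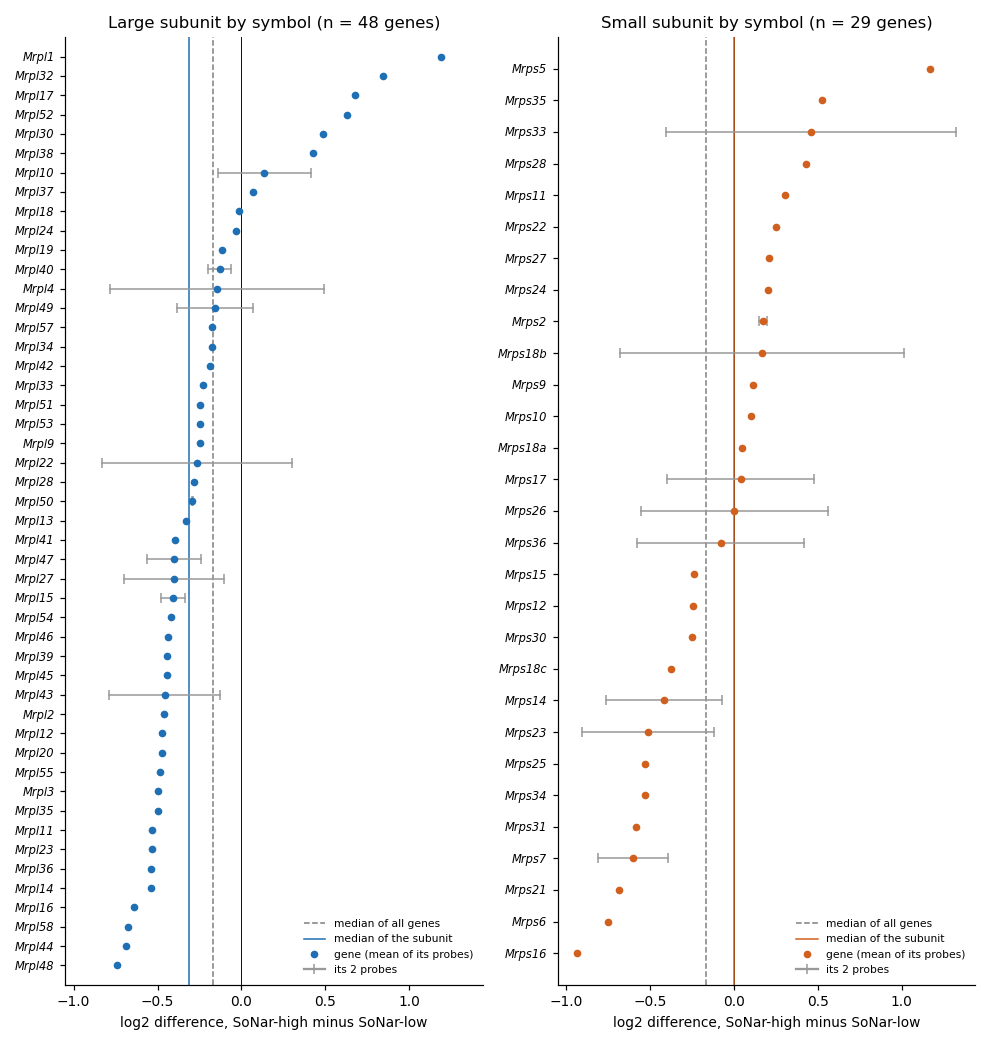
Log2 difference (SoNar-high minus SoNar-low, x axis) of each of the 48 large subunit genes (left, blue) and 29 small subunit genes (right, orange), ordered by value, with grey bars joining the 2 probes of a gene where it has them. The solid coloured line marks the subunit's median, at -0.31 and 0.00, and the dashed line the median of all genes at -0.17; most large subunit genes lie left of 0, while the small subunit genes lie on both sides.

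In the large subunit, 6 genes stood above the others, with log2 differences of 0.43 or more, and the next was at 0.14. Mrpl1, the protein of the flexible L1 stalk that flanks the exit site for tRNA, had a processed signal of 425 in SoNar-high and 168 in SoNar-low, with software error estimates of 42.6 and 19.7. After scaling this was a log2 difference of 1.19, or 2.28-fold, the highest of all 77. Mrpl32, whose maturation needs a protease of the inner membrane, had signals of 777 and 391 and a log2 difference of 0.85. Each of these values rests on a single spot of 1 array per group, so its error between samples is unknown.

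Mrpl17, a protein with a bacterial counterpart at the exit of the peptide tunnel, read 1330 in SoNar-high and 751 in SoNar-low (log2 difference 0.68). Mrpl52, found only in mitochondria, read 10409.7 and 6069 (0.63). Mrpl30 read 5693 and 3675 (0.49), and Mrpl38, which has the fold of a phosphatidylethanolamine-binding protein, 1627 and 1093 (0.43). The 6 highest large subunit genes therefore include both proteins with a bacterial homolog and proteins without one.

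At the lower end of the large subunit the values lay close together. Mrpl48, a mitochondria-specific protein, had signals of 3483 in SoNar-high and 5267 in SoNar-low, a log2 difference of -0.74. Mrpl44, which carries a ribonuclease III fold and lies near the tunnel exit, read 2219 and 3237 (-0.69). Mrpl58, a peptidyl-tRNA hydrolase that became a ribosomal protein and can free stalled ribosomes, read 3108 and 4486 (-0.67). None of these reached a 2-fold difference. Mrpl16 was at -0.64, and Mrpl14 and Mrpl36, all 3 with bacterial counterparts, were at -0.54.

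The proteins of the stalk that recruits translation factors differed from each other. Mrpl12, which forms the stalk, read 10879.5 in SoNar-high and 13662 in SoNar-low, a log2 difference of -0.47. Mrpl11, at the stalk base, read 6242 and 8156 (-0.53). Mrpl10, which holds Mrpl12 to the ribosome, was measured by 2 probes, one at 1170 and 794 (0.41) and the other at 546 and 544 (-0.14). Thus Mrpl11 and Mrpl12 lay near each other below the median of all genes, and the probes of Mrpl10 lay above it. Mrpl45, which helps anchor the ribosome to the inner membrane, read 2294 and 2826 (-0.45).

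In the small subunit, Mrps5 stood apart at the upper end. This protein has a bacterial counterpart that lines the path by which the message enters. Its signal was 8896 in SoNar-high, with a software error estimate of 890, and 3573 in SoNar-low, with one of 357. The log2 difference was 1.17, or 2.25-fold, and the next gene was at 0.53. Mrps5 kept a difference of at least 2-fold in 11 of 12 alternative settings, all but median scaling, while Mrpl1 kept it in 9. Mrpl41 turned from -0.40 to 1.17 and joined them in both settings that admit its second, dimmer probe, one asking for detection on 1 array and one with no filter.

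Mrps35, a mitochondria-specific protein, was next with a log2 difference of 0.53, which rests on uneven repeat spots described below. Mrps33, at 0.46, is the mean of 2 probes of opposite sign. Mrps28, the mitochondrial form of bacterial protein S1, read 5403 in SoNar-high and 3630 in SoNar-low (0.43). Mrps11 read 1118 and 819 (0.30), and Mrps22, in which mutations cause a respiratory chain deficiency in people, 2679 and 2033 (0.25). The decoding protein Mrps12 read 1971 and 2109 (-0.24), near the median of all genes.

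The lowest gene of both subunits was Mrps16, in which mutations cause a fatal mitochondrial disease of infants. It read 3382 in SoNar-high and 5859 in SoNar-low, a log2 difference of -0.94. Mrps6 read 973 and 1479 (-0.75), and Mrps21 9004 and 13089 (-0.68). These 3 have homologs in bacteria. Mrps7 had 2 probes that were both lower in SoNar-high, at -0.39 and -0.81. Mrps31 (-0.58) and Mrps34 (-0.53), found only in mitochondria, followed. The 3 paralogs of bacterial protein S18, which take separate places in the ribosome, had gene values of 0.05 for Mrps18a, 0.17 for Mrps18b and -0.37 for Mrps18c.

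The genes were also divided by whether they were listed with a bacterial homolog. Of the S18 paralogs, Mrps18c was listed with one, while Mrps18a and Mrps18b were counted among the genes without one. By structure, 29 large subunit genes with a bacterial homolog had a median of -0.33 and 21 without one a median of -0.25. In the small subunit the medians were -0.10 over 16 genes and 0.00 over 11. The 11 include Mrps36, although it is not seen in the structures. The SDs over single genes ran from 0.34 to 0.53, and the differences between the medians were not tested.

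How far 1 probe can be trusted was read from the 19 genes with 2 measured probes. Their probes differed by a median of 0.66 on the log2 scale, against 0.43 over all 2019 genes with 2 measured probes. In 9 of the 19 (47.4%) the probes had opposite signs, as in 45.4% of all such genes, and in 5 (26.3%) they lay at least 1 apart, against 14.2%. The probe with the higher signal gave the lower log2 difference in 13 of 19 pairs. This count was not made over all such genes, so it cannot be read as a trait of the members. Over all measured genes the log2 difference also fell with mean level (Pearson's r -0.26). The median was -0.41 over the brighter probes and -0.10 over the dimmer ones. Across the 19 pairs, which share both arrays, Pearson's r between the 2 probes was -0.30.

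The widest gap was that of Mrps33. Its probes are assigned to different transcripts, and the brighter one read 6864 in SoNar-high and 8223 in SoNar-low (-0.41), the dimmer one 336 and 121 (1.33). For Mrps18b the brighter probe read 4141 and 6000 (-0.68) and the dimmer one 209 and 93.5 (1.02). In both genes the dimmer probe alone would have given a 2-fold difference and the brighter probe points the other way. Mrpl4, a protein that lines the peptide tunnel, had probes at -0.78 and 0.49, Mrpl22 at -0.83 and 0.30, Mrps26 at -0.55 and 0.56, and Mrps36 at -0.58 and 0.42.

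Other pairs repeated closely. Mrpl50 had -0.29 from both probes, Mrps2 0.20 and 0.15, Mrpl40 -0.06 and -0.20, and Mrpl15 -0.34 and -0.48. The pairs of Mrpl47 (-0.24 and -0.56) and Mrps7 lay within 0.42. Genes with 2 measured probes had a median of -0.16 over 19 genes, and those with 1 a median of -0.25 over 58. Both genes with a 2-fold difference, Mrpl1 and Mrps5, belong to the latter.

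**Figure D3:**
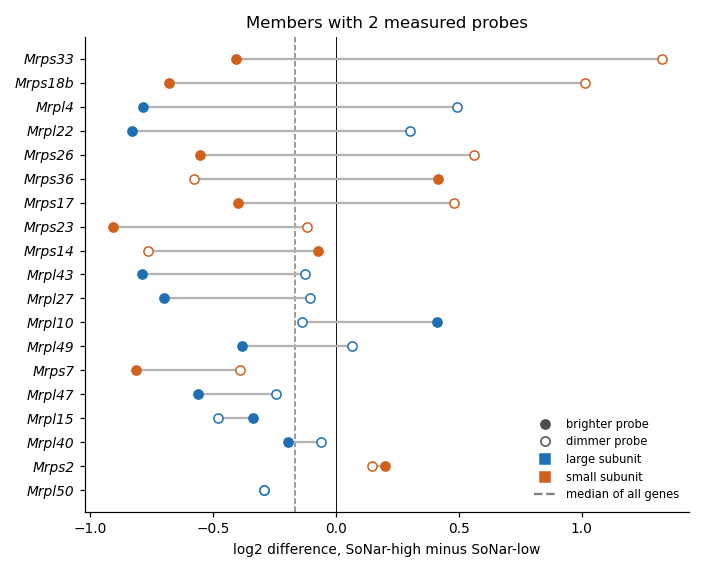
Log2 difference (SoNar-high minus SoNar-low, x axis) of each probe of the 19 genes with 2 measured probes, with the brighter probe filled and the dimmer one open, blue for the large and orange for the small subunit. Genes are ordered by the gap between probes, from 1.73 in Mrps33 to 0.0023 in Mrpl50, and in 9 of them the probes lie on both sides of 0.

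Mrpl34, Mrpl50 and Mrps35 were printed as 10 spots each across the array, which shows the error between spots directly. Mrpl34 ranged from 2313 to 2918 in SoNar-high (median 2793) and from 1981 to 3865 in SoNar-low (median 2688), and its 10 log2 differences had a mean of -0.18 with an SD of 0.33. Mrpl50 ranged from 1045 to 1481 (median 1347) and from 1217 to 1827 (median 1412), with a mean of -0.29 and an SD of 0.21. In both genes the groups overlapped, and the spots scattered more widely on the SoNar-low array.

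Mrps35 ranged from 2282 to 2828 in SoNar-high (median 2683) but from 1068 to 2936 in SoNar-low (median 2184). On the SoNar-low array 3 spots read 1134, 1068 and 1273, and their log2 differences were 1.11, 1.25 and 0.92. The other 7 lay between -0.30 and 0.29. The mean over all 10 spots was 0.33 with an SD of 0.56. Because the software marked 4 spots as outliers on the SoNar-high array, the gene's value of 0.53 comes from the 6 others (SD 0.65). Over 196 probes with at least 5 repeat spots the median SD of the log2 difference was 0.15, and that of the log2 signal was 0.065 on the SoNar-high and 0.13 on the SoNar-low array. These SDs cover spots of 1 hybridisation and leave out the error between samples.

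**Figure D4:**
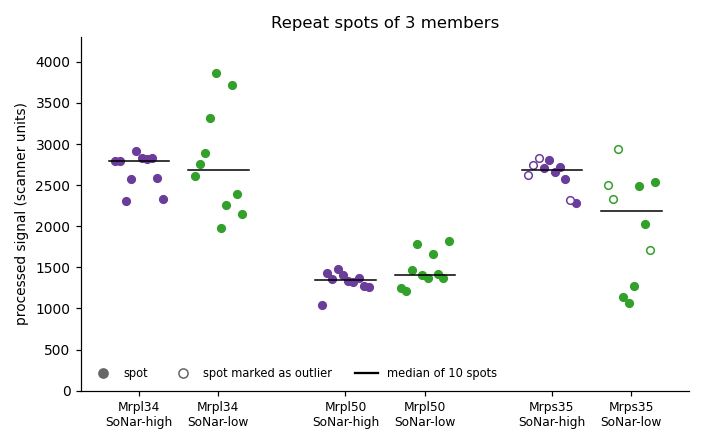
Processed signal (y axis, scanner units) of each of the 10 repeat spots of Mrpl34, Mrpl50 and Mrps35 on the SoNar-high (purple) and SoNar-low (green) array, with black lines at the median of 10 spots and open circles for spots the software marked as outliers. The spots of Mrps35 sit between 2282 and 2828 in SoNar-high, while in SoNar-low 3 of them lie between 1068 and 1273.

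Proteins of this ribosome with other names and the factors that build and serve it were read from lists. For their counts of 2-fold differences, the share over all measured genes was 4.87% on the higher and 1.68% on the lower side. Of the 5 ribosomal proteins that carry other symbols, 0 had a 2-fold difference and the median was -0.45. Ptcd3 was lowest at -0.84 (5599 in SoNar-high, 9087 in SoNar-low), followed by Chchd1 at -0.67 (13804 and 19833). Dap3, which binds GTP in the small subunit, was at -0.45, the large subunit protein Gadd45gip1 at -0.14 and Aurkaip1 at 0.03. The 4 small subunit proteins among them therefore ran from the lower end of the Mrps genes to their middle.

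Of 25 genes for assembly of the ribosome 24 were measured, with a median of -0.02 and 0 genes at a 2-fold difference in either direction. Mettl17, an assembly factor of the small subunit, read 651 in SoNar-high and 295 in SoNar-low (1.00, just under 2-fold), and Mterf4, which guides an rRNA methyltransferase, 1061 and 539 (0.83). Lowest were Mrm1, which methylates the large rRNA, at -0.79, and the GTPase Noa1 at -0.63. Malsu1, which binds Mrpl14 during assembly, was at -0.52, like Mrpl14 itself at -0.54. Fastkd2 was well above background on neither array.

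The 13 measured of 16 listed translation factors had a median of -0.28, again with 0 at 2-fold in either direction. The initiation factor Mtif2 (0.13) and the release factor Mtrf1 (0.26) were the highest, and Mtfmt, which formylates the initiator tRNA (-0.83), and the mRNA-binding protein Lrpprc (-0.59) the lowest. Mrrf and Taco1 were called detected in SoNar-high alone, but their signals differed little before scaling. Mrrf read 23.7 in both groups, and Taco1 read 72.0 in SoNar-high and 58.8 in SoNar-low. The lowest detected signal was 19.7 in SoNar-high and 46.4 in SoNar-low, so these calls alone do not show a difference in level. Mtrfr had no named probe. Of 17 mitochondrial aminoacyl-tRNA synthetases 16 were measured, with a median of -0.08. Here 1 of 16 genes was at least 2-fold higher, where 4.87% of all measured genes were, and 0 were lower, where 1.68% were. Aars2, the alanyl-tRNA synthetase, read 717 in SoNar-high and 316 in SoNar-low (1.04), and Vars2 was next at 0.18, while Rars2 (-0.90) and Yars2 (-0.88) were lowest. Nars2 was well above background on neither array.

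Set beside these, the median was -0.05 over 77 genes for proteins of the cytosolic ribosome and -0.31 over 76 for subunits of the respiratory chain and ATP synthase. With 1 array per group the differences between such lists were not tested.

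**Figure D5:**
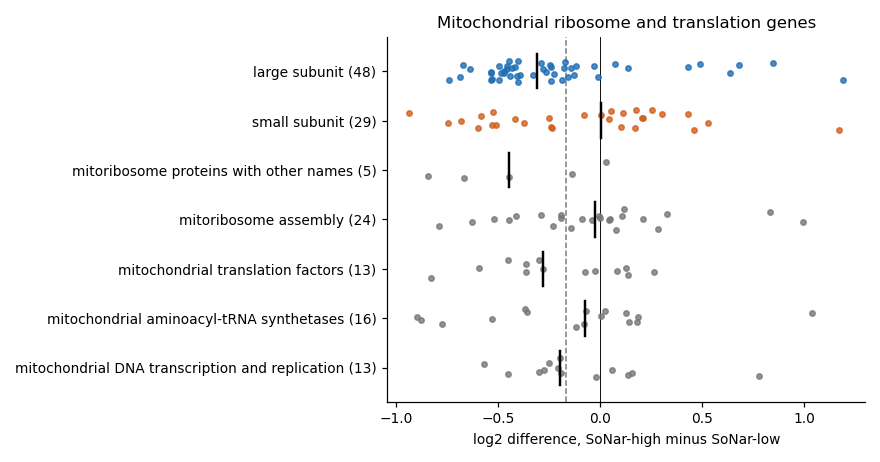
Log2 difference (SoNar-high minus SoNar-low, x axis) of each measured gene in the large subunit (blue), the small subunit (orange) and 5 lists of related genes (grey), with the number of genes in parentheses and a black bar at each list's median. The medians run from -0.45 for ribosomal proteins with other names to 0.00 for the small subunit, and the dashed line marks the median of all genes at -0.17.

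Start sites and promoters were described next, since the choice of members did not use them. RefSeq promoter windows (GRCm38.p6, 250 bases before to 50 after the start) were at hand for 69 of the 78 genes. A start of another gene on the opposite strand, pointing away, lay within 500 bases for 23 of the 69 (33.3%), against 17.7% of 8477 measured genes with a window. In 20 distinct pairs both genes were measured, and the log2 differences had opposite signs in 11 and the same sign in 9. Signs depend on the scaling, and the share over all divergent pairs of measured genes was not worked out. These counts therefore cannot be read as a result about the members. One pair joins the subunits, since Mrpl46 and Mrps11 start 41 bases apart and are read in opposite directions. The bases between their starts are shown because they are all that separates a large from a small subunit gene, at chr7:78783090-78783130 on the plus strand, the strand of Mrps11:
Mrpl46-Mrps11: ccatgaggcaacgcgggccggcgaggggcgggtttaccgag

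Of this pair, Mrpl46 read 1067 in SoNar-high and 1305 in SoNar-low (-0.44), whereas Mrps11 read 1118 and 819 (0.30), a difference of opposite sign. Each value rests on 1 spot of 1 probe. Paired probes of the same gene differed by a median of 0.66 among the members. Mrpl32 (0.85) and the proteasome gene Psma2 (-0.51), 204 bases apart, also differed in sign. So did Mrpl27 (-0.40) and Eme1 (0.96), Mrps27 (0.21) and Ptcd2 (-0.57), and Mrps12 (-0.24) and the synthetase gene Sars2 (0.14). The pairs Mrpl47 (-0.40) and Ndufb5 (-0.67) and Mrpl49 (-0.16) and Fau (-0.17) had the same sign, as did Mrpl50 (-0.29) and Zfp189 (-1.06).

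Motifs of factors known for nuclear genes of mitochondrial proteins were searched on both strands of the windows. The core of the NRF1 site, GCGCA followed by any base and GCGC, was in 13 of 69 member promoters (18.8%), against 5.19% of 27025 genes with a window and 11.9% of measured genes. CCGGAAG, the ETS core to which GABP binds, was in 26 (37.7%, against 9.93% and 21.2%), and AAGATGGCG, a form of the YY1 site, in 8 (11.6%, against 1.64% and 3.98%). CACGTG, the E-box to which MYC and its partners bind, was in 5 (7.25%, against 8.09% and 12.4%). A match is a description of letters and not a bound site. By subunit, the NRF1 letters were in 10 of 43 Mrpl and 3 of 26 Mrps promoters.

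The NRF1 matches are shown for the 3 highest and 3 lowest genes that carry them, as 30 bases on the gene's strand with the match in capitals, because they sit at both ends of the range of expression differences:
Mrpl32: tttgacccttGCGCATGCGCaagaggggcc
Mrpl17: aggctctgatGCGCACGCGCaaacgcggta
Mrpl30: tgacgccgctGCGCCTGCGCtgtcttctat
Mrpl14: aacccctggcGCGCAGGCGCagcgtgcggg
Mrps21: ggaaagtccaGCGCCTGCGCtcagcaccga
Mrpl44: agaagcacttGCGCACGCGCagtacactag

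They lie at chr13:14613105-14613134 (minus), chr7:105811117-105811146 (minus), chr1:37890384-37890413 (plus), chr17:45686343-45686372 (plus), chr3:95871586-95871615 (minus) and chr1:79775973-79776002 (plus) of GRCm38.p6. The first 3 genes had log2 differences of 0.85, 0.68 and 0.49 and the last 3 of -0.54, -0.68 and -0.69. The 13 measured genes with these letters had a median of -0.25, the same as the 55 without them. For the ETS letters the medians were -0.24 over 25 genes and -0.29 over 43. For the YY1 letters they were 0.06 over 8 genes, from -0.54 to 0.30, and -0.27 over 60, with 4 Mrpl and 4 Mrps genes among the 8. For the E-box they were -0.46 over 5 genes and -0.24 over 63. Of 3 further motifs searched, GGGCGG, the SP1 site, was in 34 promoters (49.3%, against 38.2% of genes with a window and 66.7% of measured genes), with medians of -0.17 over 34 genes and -0.40 over the 34 without it. CCAAT was in 27 (39.1%, against 41.1% and 43.3%; medians -0.24 and -0.26) and TATAAA in 5 (7.25%, against 15.7% and 9.13%; medians -0.44 and -0.25).

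The promoter of Mrps5, one of the 2 genes past 2-fold, is shown whole from 250 bases before its start, at chr2:127587176-127587425 on the plus strand. It held none of the NRF1, ETS, YY1, E-box, CCAAT or TATAAA letters, but did hold the SP1 letters on the reverse strand, left unmarked here:
Mrps5: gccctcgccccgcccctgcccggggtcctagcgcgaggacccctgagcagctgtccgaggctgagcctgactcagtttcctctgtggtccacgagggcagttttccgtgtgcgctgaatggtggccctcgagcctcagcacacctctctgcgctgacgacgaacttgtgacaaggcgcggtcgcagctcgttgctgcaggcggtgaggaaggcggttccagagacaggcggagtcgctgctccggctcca

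Mrpl12, the stalk protein at -0.47, is set against it because its promoter carries the NRF1 letters on the reverse strand, at chr11:120484387-120484636 on the plus strand:
Mrpl12: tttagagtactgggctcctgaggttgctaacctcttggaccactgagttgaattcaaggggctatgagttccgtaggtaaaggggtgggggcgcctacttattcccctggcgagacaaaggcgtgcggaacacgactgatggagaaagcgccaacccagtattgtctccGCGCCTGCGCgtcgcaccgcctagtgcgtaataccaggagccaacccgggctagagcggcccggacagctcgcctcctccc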

How the data were processed

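The values used were processed spot intensities of 1-colour Agilent arrays, deposited as scanner output. Per the file headers, Agilent Feature Extraction 11.0.1.1 had removed background and a spatial trend from them, with no scaling between arrays. The submitters' processing notes name version 9.1. The authors' value table holds log2 values whose columns share a median of 5.90, and it was used only as an alternative.

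Control spots and 685 spots marked as outliers were left out. Spots of a probe were averaged. A probe counted as measured when both arrays had it well above background in the majority of its spots. Probes were named through RefSeq accessions without version (27109 of 39085). No coordinates of the array's mm9 annotation were used. Named were the 6 highest and 6 lowest genes of each subunit, genes past 2-fold, probe pairs with wide or narrow gaps, a set of members chosen by function, and the 2 highest and 2 lowest of each list. The members, lists and this rule were chosen with earlier results of these data known. The divergent gene pairs, the promoters shown, Malsu1, Tfam and Polrmt were chosen after their values were seen. Alternatives were other scalings and normalizations, normexp background correction, the brightest probe of a gene, looser and stricter dim-probe filters, outlier spots kept, the authors' value table and subunits by structure. The steps were checked on simulated data. Python 3.11.15, numpy 2.4.6, pandas 2.3.3, R 4.3.3 and limma 3.58.1 were used.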

Additional observations from a re-analysis of the deposited data

Results flagged for a closer look

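Probes left out of a gene's value held signal on the SoNar-high array. There 97.5% of 153 negative control spots read at most 5.50, below each of the 3 probes. On the SoNar-low array the same limit was 13.3, and the 3 probes read above it too, but none of them was well above background. The second probe of Mrpl41, a mitochondria-specific protein of the large subunit, read 185.7 in SoNar-high and 25.4 in SoNar-low, so it was at least 3.62-fold higher in SoNar-high in the scaling used, while the probe behind the gene's value of -0.40 read 2460 and 2926. With this probe included, as when detection on 1 array was enough or no filter was set, the gene's value turned from -0.40 to 1.17, past 2-fold. For Mrps25 the second probe read 51.6 in SoNar-high and 45.2 in SoNar-low, and for Mrpl39 22.9 and 34.0. In all 3 genes the left-out probe's SoNar-low signal was under 46.4, the lowest signal detected on that array.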

How the results depend on the processing

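No paired analysis was possible because the design has 1 array a group, which also left none to leave out. Values were taken as moved where they shifted by more than 0.15, the median SD between repeat spots. The large subunit median of -0.31 became -0.92 with median scaling, -0.097 when the percentile was taken over spots that both arrays detected, -0.088 with cyclic loess and -0.14 after centring on all genes. The small subunit median of 0.00 became -0.61, 0.22 and 0.17 with the first, second and last of these settings, and -0.24 with the brightest probe. The gap between subunits of -0.31 moved only with the brightest probe, to -0.15, and could not move with the scalings or centring. Median scaling gave 0 genes at least 2-fold higher and 32 lower, with the median of all measured genes at -0.78. Normexp and the authors' value table gave 1 higher each. Scalings and centring shift all genes alike by construction, and for the others the cause was not tested. Of 77 single genes, 69 moved with cyclic loess, 46 after quantile normalization and 36 when the authors' value table was read, 15 with the brightest probe, 7 with normexp, 2 with no filter on dim probes or detection on 1 array, and 1 with the stricter filter or outlier spots kept. Mrpl41 went from -0.40 to 1.17 with either looser filter. With 1 array per group and repeat spots that differ by up to 0.65 (SD), differences of that size in 1 gene cannot be told from technical error.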

Other observations

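A list of genes that copy and transcribe mitochondrial DNA, which supplies the rRNAs of this ribosome, had a median near that of all genes. The list also holds Nrf1, Gabpa, Gabpb1, Ppargc1b and Pprc1, which regulate nuclear genes of mitochondrial proteins. Its median is therefore not that of the copying and transcribing genes alone. All 13 listed were measured, 0 had a 2-fold difference in either direction (4.87% higher and 1.68% lower over all measured genes) and the median was -0.20. Ppargc1b, a coactivator of mitochondrial biogenesis, read 730 in SoNar-high and 385 in SoNar-low (0.78), and Pprc1 was next at 0.16. Ssbp1, which coats single-stranded mitochondrial DNA, was lowest at -0.57, followed by the transcription factor gene Nrf1 at -0.46. Tfam, the main packaging protein of mitochondrial DNA, was at -0.28 and the RNA polymerase gene Polrmt at -0.02. Mrpl43 and Twnk, the mitochondrial DNA helicase, start 115 bases apart in opposite directions and had log2 differences of -0.46 and 0.06.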
